A study of Mus musculus with 18 samples.

Results

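Glycolysis splits glucose into pyruvate, glycogen is the store that feeds it in muscle, and the pyruvate dehydrogenase complex passes its product to the mitochondria. 38 genes of these steps were followed in cultured mouse myotubes, 38 of the 55414 genes of the count table and 38 of the 21772 that had at least 10 counts over all libraries. They were taken as a list of symbols, matched to the Ensembl identifiers of the table by the mouse annotation, and they fall into 6 steps: upper glycolysis with 9 genes, the regulators of phosphofructokinase with 2, lower glycolysis with 7, lactate handling with 4, glycogen with 10 and pyruvate dehydrogenase with 6. All 38 were found and all 38 passed the filter on low counts.

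Hexokinase traps glucose in the cell, phosphofructokinase commits it to glycolysis, and pyruvate kinase ends the pathway with pyruvate. Several of these steps have a muscle isozyme and a widely expressed isozyme encoded by different genes, and the balance between them shifts as muscle cells differentiate. Pyruvate leaves the pathway as lactate, exported by monocarboxylate transporters, or enters the mitochondria through pyruvate dehydrogenase, which the pyruvate dehydrogenase kinases switch off by phosphorylation and the matching phosphatases switch back on.

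The cells were C2C12, a line of mouse skeletal myoblasts that fuse into myotubes when serum is lowered. The cells were transfected at confluence with a SMARTpool siRNA, a mixture of several siRNAs against one target, by DharmaFECT Duo, differentiated for 6 days and then kept for 16 h in medium without serum. The siRNA was a non-targeting control (siNTC), siErk3, which targets the atypical MAP kinase Erk3 encoded by Mapk6, or siMk5, which targets its partner kinase Mk5 encoded by Mapkapk5. The medium held BSA as vehicle or 0.5 mM palmitic acid (PA) bound to BSA, which gives 6 groups of 3 libraries each. The sources do not say whether the libraries of a group came from separate cultures, so the p-values measure the spread between these libraries, which may be technical. The RNA came from whole cultures of 1 line, in which fewer cells of a kind and less RNA per cell cannot be told apart.

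The libraries held 13041979 to 28496727 counts, of which 1.497 to 12.9% fell on an 18S ribosomal RNA gene, and the 38 genes took 0.797 to 0.928% of the remaining counts. Mapk6 measured 135, 129 and 133 CPM (counts scaled to library size by the TMM method) in siNTC BSA and 56.6, 60.3 and 55.2 CPM in siErk3 BSA, a log2 difference of -1.20 (adjusted p = 1.77e-14, edgeR). Mapkapk5 was low, at 2.53, 2.54 and 2.32 CPM in siNTC BSA against 1.18, 2.01 and 1.70 CPM in siMk5 BSA, and although the groups did not overlap its difference of -0.61 did not pass the test over all genes (adjusted p = 0.469, edgeR). In PA Mapk6 measured 215, 236 and 244 CPM with siNTC and 131, 119 and 109 CPM with siErk3. The silenced level in PA was thus near the siNTC level in BSA. Mapkapk5 measured 2.52, 3.92 and 3.28 CPM in siNTC PA and 2.43, 2.33 and 2.17 CPM in siMk5 PA. Myotube markers were plentiful: the 25 listed genes summed to 18797 to 23868 CPM in the 9 BSA libraries and to 17361 to 19955 CPM in the 9 PA libraries. Those of adipocytes stayed at or under 0.14 CPM in sum, those of endothelial cells at or under 1.12 CPM, those of macrophages at or under 1.91 CPM and those of osteoblasts at or under 16.97 CPM, with Cfd, Plin1, Adgre1 and Ibsp at 0 in every library.

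The starts of 5 of the genes are printed here because the results turn on them: Hk2, Slc16a1 and Gbe1 had the highest PA-to-BSA folds of the 38 genes in all 3 siRNA groups, and Pgam1 and Pgam2 are an isozyme pair of which 1 rose and the other fell. Each stretch runs from 250 bases before to 50 bases after the gene's start in RefSeq on the GRCm38.p6 assembly, 5′ to 3′ on the gene's strand: Hk2 at chr6:82774405-82774704, minus strand, Slc16a1 at chr3:104638414-104638713, plus strand, Gbe1 at chr16:70313699-70313998, plus strand, Pgam1 at chr19:41911621-41911920, plus strand, and Pgam2 at chr11:5803747-5804046, minus strand. Capitals mark each match to ACGTG on either strand (CACGT when read on the other strand), the core of the hypoxia response element, and each match to the box bound by MEF2 factors. Matches to CANNTG, the E-box of basic helix-loop-helix factors such as MyoD, were counted and are in capitals only where they coincide with ACGTG. The CACGTG of Slc16a1 is such a case, and it counts as a match to ACGTG on each strand.
Hk2: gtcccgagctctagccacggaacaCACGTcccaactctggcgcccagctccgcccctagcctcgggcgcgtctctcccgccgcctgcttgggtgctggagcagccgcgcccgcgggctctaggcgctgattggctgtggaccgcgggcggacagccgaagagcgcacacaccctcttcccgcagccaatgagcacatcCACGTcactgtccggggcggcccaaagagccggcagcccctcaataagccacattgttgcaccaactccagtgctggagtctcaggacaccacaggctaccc
Slc16a1: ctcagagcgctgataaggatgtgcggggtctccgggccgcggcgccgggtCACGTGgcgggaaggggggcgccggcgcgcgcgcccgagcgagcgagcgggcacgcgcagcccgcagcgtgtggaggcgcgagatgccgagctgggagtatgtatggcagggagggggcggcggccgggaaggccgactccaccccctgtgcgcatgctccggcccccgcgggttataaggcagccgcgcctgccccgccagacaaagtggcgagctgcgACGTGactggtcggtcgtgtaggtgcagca
Gbe1: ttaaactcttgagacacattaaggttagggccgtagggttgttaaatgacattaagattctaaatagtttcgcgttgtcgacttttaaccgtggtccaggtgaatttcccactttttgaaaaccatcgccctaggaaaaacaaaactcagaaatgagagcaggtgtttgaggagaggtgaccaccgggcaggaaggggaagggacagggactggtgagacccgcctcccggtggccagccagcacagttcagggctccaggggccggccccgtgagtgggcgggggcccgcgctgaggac
Pgam1: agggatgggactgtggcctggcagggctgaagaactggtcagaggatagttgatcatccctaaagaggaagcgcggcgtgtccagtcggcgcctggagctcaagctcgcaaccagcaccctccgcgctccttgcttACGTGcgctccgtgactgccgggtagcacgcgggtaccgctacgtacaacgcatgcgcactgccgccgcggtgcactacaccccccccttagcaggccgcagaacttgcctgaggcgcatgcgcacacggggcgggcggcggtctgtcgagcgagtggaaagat
Pgam2: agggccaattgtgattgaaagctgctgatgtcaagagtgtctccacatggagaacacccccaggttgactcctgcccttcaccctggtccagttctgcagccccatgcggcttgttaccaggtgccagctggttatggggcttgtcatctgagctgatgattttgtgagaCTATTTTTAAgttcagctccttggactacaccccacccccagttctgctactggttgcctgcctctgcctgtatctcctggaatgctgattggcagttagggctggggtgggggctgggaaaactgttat

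The Hk2 stretch held 2 matches to ACGTG, that of Slc16a1 3, that of Pgam1 1, and those of Gbe1 and Pgam2 held 0. Pgam2, the muscle isozyme, held 5 matches to CANNTG and the only MEF2 box found in any stretch of the listed genes. RefSeq stretches were matched for 37 of the 38 genes, 52 in all because some genes have several starts, and Pdp1 was not matched. ACGTG stood in 24 of these 52 stretches (46.2%), in 7 of the 9 stretches (77.8%) of the 8 genes that rose with PA in all 3 siRNA groups, in 3 of the 7 stretches (42.9%) of the 3 genes that fell in all 3, and in 19.6% of all 32851 stretches of the same length. CANNTG, which overlaps ACGTG where both stand in CACGTG, was found in 71.2% of the stretches of the listed genes and in 72.3% of all stretches, and the MEF2 box in 1.92% and 3.19%. The shares over all stretches were not matched to the list for base composition or expression. A match says only that these letters are present in the window.

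Levels were compared between genes per kilobase of exon. In siNTC BSA the order began with Eno3, the muscle enolase, at 346 ± 19.5 CPM per kb (SD, n = 3), followed by the pyruvate kinase gene Pkm at 272 ± 10.7, the muscle aldolase gene Aldoa at 256 ± 21.5, and Gapdh at 232 ± 7.29. Aldoa stood within its spread of Pkm. Ldha, at 145 ± 1.65, Tpi1, at 142 ± 8.25, and Pgk1, at 135 ± 4.84, followed, and Tpi1 stood within its spread of both its neighbours. Pfkm, the muscle phosphofructokinase, measured 93.5 CPM per kb, Pdha1, the catalytic subunit of pyruvate dehydrogenase, 65.3, and Pygm, the muscle glycogen phosphorylase, 36.1. The order ended with Ppp1r3c at 1.20, Pfkfb3 at 0.975, the brain aldolase gene Aldoc at 0.499 and Phkg1, the muscle catalytic subunit of phosphorylase kinase, at 0.0333 CPM per kb. Phkg1 had only 1 to 11 counts per library and no difference in it could be measured.

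The comparison of PA with BSA asked what a saturated fatty acid did to the steps of glucose use, and each of the 6 steps held at least 1 called gene in each siRNA group. In siNTC myotubes 17 of the 38 genes passed an adjusted p below 0.05 and a fold above 1.3 (edgeR quasi-likelihood test, Benjamini-Hochberg over 21772 genes), 10 higher and 7 lower with PA. That is 44.7% of the genes, where 30.6% of all genes tested were called, 15.5% higher and 15.1% lower. In siErk3 myotubes 17 were called as well, 9 higher and 8 lower (44.7%, all genes 32.1%, of which 15.8% higher and 16.3% lower), and in siMk5 myotubes 12, 8 higher and 4 lower (31.6%, all genes 29.7%, of which 15.1% higher and 14.6% lower). The words rose and fell are used only for genes that passed both criteria.

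Many of the remaining differences were small but separated the libraries. Without the fold criterion 32, 30 and 29 of the 38 genes passed in siNTC, siErk3 and siMk5 (84.2, 78.9 and 76.3%, where 45.1, 47.1 and 44.3% of all genes did). The shares over all genes, here and elsewhere, were not matched to the list for level. They include many genes of low count, since a stricter filter kept 15040 of the 21772. The median log2 difference of the 38 genes was 0.12, 0.01 and 0.15, against -0.03, -0.01 and -0.01 over all genes tested. The median thus hardly moved while the members moved in both directions. Their summed share of the counts without the 18S gene was higher with PA. It was 0.797 to 0.865% in the 9 BSA libraries and 0.873 to 0.928% in the 9 PA libraries. 33 of the 38 genes had the same sign in all 3 siRNA groups, which share no library in these comparisons. All 9 PA libraries lay above all 9 BSA libraries for 16 genes and below them for 7, together 60.5% of the list, where 32.9% of all genes separated in this way. Across the 38 genes, which are not independent replicates, the log2 differences of siNTC correlated with those of siErk3 at a Pearson r of 0.96 and a Spearman rho of 0.97, and with those of siMk5 at 0.95 and 0.90.

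8 genes rose in all 3 siRNA groups: Hk2, Pfkl, Pfkfb3, Pgk1, Pgam1, Slc16a1, Gbe1 and Pgm1. 3 genes fell in all 3: Pfkm, Pgam2 and Pdk2. 9 were called in 1 or 2 of the groups and 18 in none. Among those 9 the calls of Pfkp in siNTC, Eno1 in siNTC and siErk3, and Ldhb and Aldoc in siErk3 lay near the thresholds and were lost under some alternative settings or without some libraries. By step, the calls in siNTC, siErk3 and siMk5 were 4, 4 and 3 of 9 genes in upper glycolysis, 1, 1 and 1 of 2 among the phosphofructokinase regulators, 5, 5 and 3 of 7 in lower glycolysis, 2, 2 and 1 of 4 in lactate handling, 4, 3 and 3 of 10 in glycogen, and 1, 2 and 1 of 6 at pyruvate dehydrogenase. Lower glycolysis was the step in which all 7 genes passed without the fold criterion in each siRNA group.

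**Figure D1:**
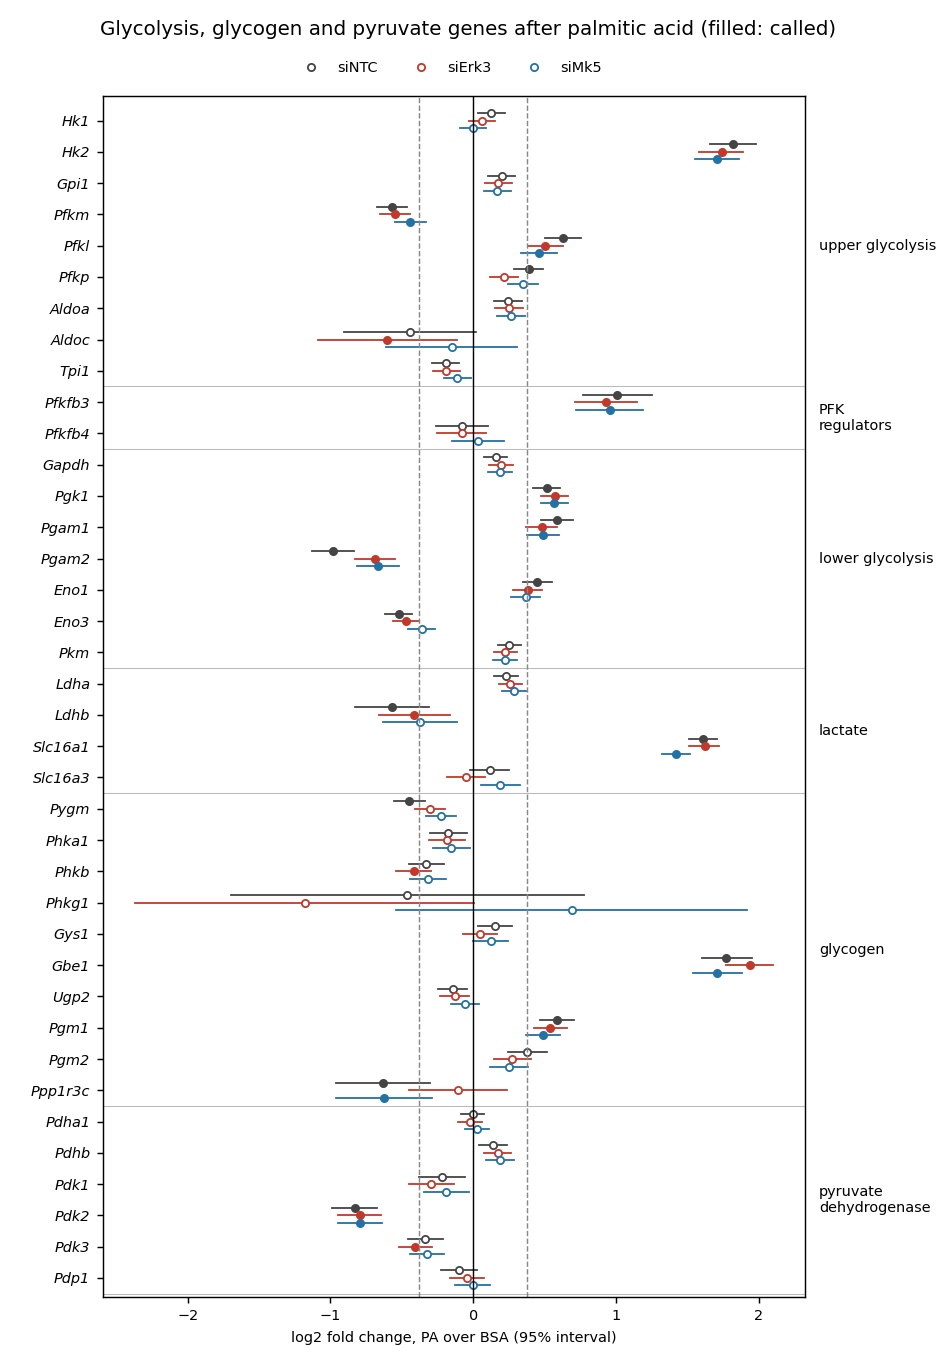
Log2 ratio of PA over BSA (horizontal axis) for the 38 genes, grouped by step, in siNTC, siErk3 and siMk5 myotubes. Points are edgeR estimates with 95% intervals, filled where a gene passed both criteria, and dashed lines mark 1.3-fold. Hk2, Slc16a1, Gbe1 and Pfkfb3 stand to the right in all 3 groups, while Pgam2, Pdk2 and Pfkm stand to the left.

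Hk2, the inducible hexokinase of muscle at chr6:82702006-82751435 (GRCm39, ENSMUSG00000000628), had the highest fold of upper glycolysis. It measured 39.6, 41.5 and 43.2 CPM in siNTC BSA and 131, 149.6 and 159.6 CPM in siNTC PA. In siErk3 it went from 45.1, 42.2 and 48.01 to 168, 145 and 139 CPM. In siMk5 it went from 44.3, 45.1 and 40.0 to 156, 133 and 134 CPM. The 9 BSA libraries stayed at or under 48.01 CPM and the lowest PA library stood at 131 CPM, so the media were far apart whatever the siRNA. Hk2 rose 3.53-fold in siNTC (log2 1.82, SE 0.0769, adjusted p = 1.38e-18, edgeR), 3.33-fold in siErk3 and 3.27-fold in siMk5. Hk1, the constitutive hexokinase, measured 130.2, 138 and 142 CPM in siNTC BSA and 147, 151 and 149.9 CPM in siNTC PA, and its log2 differences were 0.13 in siNTC, 0.06 in siErk3 and -0.00 in siMk5, none past the fold criterion.

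Phosphofructokinase changed in composition. Pfkm, its muscle subunit, measured 294, 326 and 316 CPM in siNTC BSA and 208, 219 and 206 CPM in siNTC PA, and all 9 PA libraries, from 201 to 228 CPM, lay below all 9 BSA libraries. It fell with PA in each siRNA group, with log2 differences of -0.57 in siNTC, -0.55 in siErk3 and -0.44 in siMk5 (SE 0.0518, 0.0515 and 0.0518). Pfkl, the liver subunit, went the other way, from 65.0, 78.2 and 77.6 to 106, 119.8 and 117 CPM in siNTC. Its 9 BSA libraries ran from 65.0 over a median of 78.2 to 86.1 CPM and its 9 PA libraries from 104.6 over 117 to 121 CPM, without overlap. Pfkl rose by log2 0.63 in siNTC, 0.51 in siErk3 and 0.46 in siMk5. Pfkp, the platelet subunit, measured 58.0, 57.7 and 59.4 CPM in siNTC BSA and 74.3, 80.4 and 74.7 CPM in siNTC PA. It rose in siNTC only just past the fold criterion (log2 0.39, SE 0.0505, adjusted p = 1.10e-07, edgeR), and its values in siErk3 and siMk5, 0.22 and 0.35, passed the test without reaching that fold.

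The other enzymes of upper glycolysis moved little. Aldoa, the muscle aldolase, measured 674, 783 and 781 CPM in siNTC BSA and 856, 896 and 899 CPM in siNTC PA, and Gpi1, the glucose phosphate isomerase, 272, 308 and 307 and 332, 344 and 345 CPM. Both had higher values in every PA library than in any BSA library of the same siRNA, at 1.12 to 1.20-fold, and passed the test without the fold criterion in each siRNA group. Tpi1, the triosephosphate isomerase, went the other way with log2 differences of -0.19 in siNTC, -0.19 in siErk3 and -0.11 in siMk5. Aldoc, the brain aldolase, had values of 0.760 to 2.08 CPM, was called in siErk3 alone, where it fell (log2 -0.60, SE 0.240, adjusted p = 0.0392, edgeR), and its libraries overlapped between the media in siNTC and siMk5.

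Of the regulators of phosphofructokinase, Pfkfb3 rose. The enzymes of this family make and break down the sugar bisphosphate that activates phosphofructokinase, and Pfkfb3 is the form most devoted to making it. It measured 5.97, 7.88 and 8.28 CPM in siNTC BSA and 13.3, 15.6 and 16.5 CPM in siNTC PA, with no overlap between the 9 BSA libraries (5.97 to 9.41 CPM) and the 9 PA libraries (13.3 to 18.7 CPM). The rise was 2.01-fold in siNTC (log2 1.01, SE 0.117), 1.91-fold in siErk3 and 1.94-fold in siMk5. Pfkfb4 measured 9.48, 10.8 and 10.02 CPM in siNTC BSA and 9.36, 10.4 and 9.04 CPM in siNTC PA, with overlapping libraries in each siRNA group and differences of -0.08 in siNTC, -0.08 in siErk3 and 0.03 in siMk5.

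**Figure D2:**
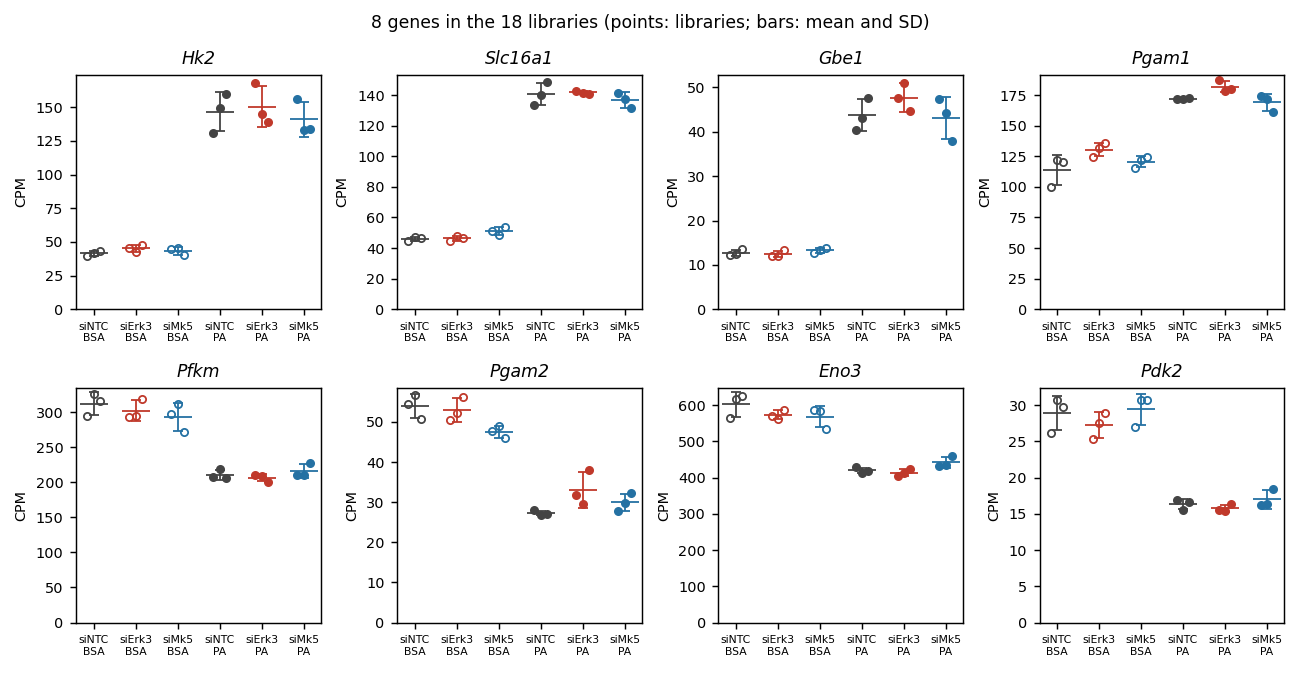
CPM (vertical axis, from 0) of 8 genes in each of the 18 libraries, by siRNA and medium, open points for BSA and filled points for PA, with bars for the mean and SD of each group of 3. Hk2, Slc16a1, Gbe1 and Pgam1 are higher in every PA library than in any BSA library, and Pfkm, Pgam2, Eno3 and Pdk2 are lower in every PA library.

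Lower glycolysis divided between widely expressed and muscle isozymes. Pgam1, the widely expressed phosphoglycerate mutase at chr19:41900362-41907099 (ENSMUSG00000011752), measured 100.03, 122 and 120.0 CPM in siNTC BSA and 172, 172 and 172 CPM in siNTC PA. Pgam2, the muscle mutase at chr11:5751640-5753733 (ENSMUSG00000020475), went from 54.5, 56.7 and 50.7 to 27.9, 26.9 and 27.1 CPM. Neither gene's 9 PA libraries overlapped its 9 BSA libraries. Pgam1 rose by log2 0.59 in siNTC, 0.48 in siErk3 and 0.49 in siMk5, and Pgam2 fell with log2 differences of -0.98 in siNTC, -0.69 in siErk3 and -0.67 in siMk5 (SE 0.0729, 0.0697 and 0.0726), which in siNTC is 1.98-fold lower (adjusted p = 9.49e-13, edgeR). In siErk3 Pgam2 went from 50.4, 52.2 and 56.3 to 31.8, 29.5 and 38.1 CPM and in siMk5 from 47.6, 49.1 and 46.0 to 27.9, 29.9 and 32.2 CPM.

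The enolases followed the same division. Eno1, the widely expressed form, measured 582, 663 and 667 CPM in siNTC BSA and 832, 876 and 904 CPM in siNTC PA, and rose in siNTC and siErk3 with log2 differences of 0.45 and 0.38. In siMk5 its difference of 0.37 passed the test and missed the fold criterion. Eno3, the muscle form, measured 563, 617 and 626 CPM in siNTC BSA and 428, 414 and 418 CPM in siNTC PA, and fell in siNTC and siErk3 (-0.52 and -0.47), with -0.36 in siMk5. For both enolases the media did not overlap over the 18 libraries. Reads of Eno1 may be shared with its near-identical copy Eno1b, and their counts are uncertain to that extent.

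Pgk1, the phosphoglycerate kinase at which glycolysis first yields ATP, rose in all 3 siRNA groups. It measured 315, 293 and 304 CPM in siNTC BSA and 411, 435 and 456 CPM in siNTC PA, and its log2 differences were 0.51 in siNTC, 0.57 in siErk3 and 0.57 in siMk5. Gapdh, whose enzyme makes the NADH of glycolysis, and Pkm, pyruvate kinase, were higher in every PA library than in any BSA library by less than the fold criterion. Gapdh measured 926, 976 and 979 CPM in siNTC BSA and 1054, 1061 and 1095 CPM in siNTC PA, with log2 differences of 0.16 in siNTC, 0.19 in siErk3 and 0.19 in siMk5. Pkm measured 1302, 1372 and 1407 and 1601, 1627 and 1632 CPM, with 0.25 in siNTC, 0.23 in siErk3 and 0.22 in siMk5. Summed over its 7 genes, lower glycolysis took 0.443% ± 0.0113 of the counts without the 18S gene in siNTC BSA and 0.476% ± 0.00667 in siNTC PA (SD, n = 3). Gapdh, Pgk1 and Pkm have processed copies in the genome, and how the counting divided reads between them was not tested.

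Lactate handling was led by Slc16a1, which encodes the monocarboxylate transporter MCT1 at chr3:104545984-104565778 (ENSMUSG00000032902). It measured 44.4, 47.1 and 46.3 CPM in siNTC BSA and 133, 140.1 and 148 CPM in siNTC PA. In siErk3 it went from 44.4, 48.1 and 46.3 to 143, 142 and 141 CPM. In siMk5 it went from 51.1, 48.6 and 53.6 to 141, 138 and 131 CPM. The replicates of each group lay close together and the media far apart. Slc16a1 rose 3.05-fold in siNTC (log2 1.61, SE 0.0510, adjusted p = 1e-21, edgeR), 3.06-fold in siErk3 and 2.68-fold in siMk5. Slc16a3, which encodes MCT4, the exporter typical of glycolytic muscle, measured 25.4, 28.05 and 26.3 CPM in siNTC BSA and 27.5, 28.3 and 30.9 CPM in siNTC PA and was not called in any siRNA group, with log2 differences of 0.12 in siNTC, -0.05 in siErk3 and 0.19 in siMk5.

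Ldha, the lactate dehydrogenase subunit that predominates in muscle, measured 475, 476 and 485 CPM in siNTC BSA and 541, 559 and 584 CPM in siNTC PA. It was higher with PA in every library, with log2 differences of 0.23 in siNTC, 0.26 in siErk3 and 0.28 in siMk5, below the fold criterion. Ldhb, the heart subunit, was low, at 7.59, 6.88 and 6.38 CPM in siNTC BSA and 4.09, 5.11 and 4.75 CPM in siNTC PA. Ldhb fell in siNTC and siErk3 (log2 -0.57 and -0.41, SE 0.125 and 0.122), and in siMk5 its -0.38 stood just inside the fold criterion.

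Among the glycogen genes Gbe1 stood apart. Gbe1, the branching enzyme that adds side chains to glycogen, at chr16:70110837-70366604 (ENSMUSG00000022707), measured 12.2, 12.4 and 13.6 CPM in siNTC BSA and 40.5, 43.0 and 47.6 CPM in siNTC PA. In siErk3 it went from 11.999, 12.1 and 13.3 to 47.6, 51.0 and 44.6 CPM. In siMk5 it went from 12.6, 13.4 and 13.8 to 47.4, 44.2 and 37.9 CPM. No BSA library passed 13.8 CPM and no PA library was under 37.9 CPM. The rise was 3.42-fold in siNTC (log2 1.77, SE 0.0837, adjusted p = 2.11e-17, edgeR), 3.83-fold in siErk3 and 3.27-fold in siMk5. Gys1, the glycogen synthase that lengthens the chains Gbe1 branches, measured 85.9, 93.1 and 100.2 CPM in siNTC BSA and 106, 108 and 97.8 CPM in siNTC PA, and was called in no group (0.15 in siNTC, 0.05 in siErk3 and 0.12 in siMk5).

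The phosphoglucomutases link glycogen to glycolysis. Pgm1, at 44.9, 49.0 and 54.9 CPM in siNTC BSA and 70.2, 77.5 and 77.3 CPM in siNTC PA, rose in all 3 siRNA groups with log2 differences of 0.59 in siNTC, 0.54 in siErk3 and 0.49 in siMk5. Pgm2, at 22.97, 22.5 and 20.8 and 27.6, 27.7 and 30.8 CPM, was higher in every PA library and did not pass the fold criterion, which in siNTC it missed by the third decimal. Ugp2, which makes the UDP-glucose used by glycogen synthase, had log2 differences of -0.14 in siNTC, -0.13 in siErk3 and -0.06 in siMk5 and was not called.

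Of the listed genes of glycogen breakdown, Pygm fell in siNTC, Phkb fell in siErk3, and Phka1 and Phkg1 were called in no group. Pygm measured 116, 115 and 117 CPM in siNTC BSA and 81.4, 83.3 and 90.6 CPM in siNTC PA (log2 -0.45, SE 0.0526). In siErk3 it went from 122, 116 and 127 to 105.2, 96.7 and 93.7 CPM and in siMk5 from 113, 106 and 101 to 93.1, 90.7 and 89.1 CPM, differences of -0.30 and -0.23 that passed the test alone. Phkb and Phka1, regulatory subunits of the kinase that activates phosphorylase, had log2 differences of -0.33, -0.42 and -0.32, and of -0.17, -0.19 and -0.15. All passed the test without the fold criterion, and Phkb passed both criteria in siErk3, from 117, 113 and 121 to 80.4, 90.3 and 92.5 CPM. Outside the list, Pygb, the brain phosphorylase, and Phka2, another regulatory subunit of the kinase, fell in all 3 siRNA groups, while Phkg2, another catalytic subunit, and Gaa, the lysosomal enzyme that degrades glycogen, rose in all 3. Ppp1r3c, which brings a protein phosphatase to glycogen and thereby favours its synthesis, measured 3.23, 3.63 and 2.98 CPM in siNTC BSA and 2.16, 2.37 and 1.82 CPM in siNTC PA, and fell in siNTC and siMk5 (-0.63 and -0.63). In siErk3 its libraries overlapped between the media, at 2.03, 1.94 and 2.11 and 1.93, 1.77 and 1.99 CPM, with a difference of -0.10.

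At pyruvate dehydrogenase the catalytic genes stayed near their levels and the kinase genes of the list were lower. Pdha1 measured 255, 237 and 239.7 CPM in siNTC BSA and 245, 244 and 239.6 CPM in siNTC PA, with 95% intervals of the log2 difference from -0.09 to 0.08 in siNTC, from -0.11 to 0.06 in siErk3 and from -0.06 to 0.11 in siMk5. Pdhb, the partner subunit of Pdha1, was slightly higher with PA (0.14 in siNTC, 0.17 in siErk3 and 0.19 in siMk5), inside the fold criterion. Pdk2 measured 26.2, 30.7 and 29.7 CPM in siNTC BSA and 16.9, 15.5 and 16.6 CPM in siNTC PA, and every PA library was at or under 18.5 CPM while no BSA library was under 25.3 CPM. It fell in all 3 siRNA groups, with log2 differences of -0.83 in siNTC, -0.80 in siErk3 and -0.79 in siMk5 (SE 0.0768, 0.0750 and 0.0761), 1.78-fold lower in siNTC (adjusted p = 1.19e-10, edgeR).

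Pdk3 measured 31.1, 31.8 and 30.5 CPM in siNTC BSA and 24.1, 25.6 and 24.4 CPM in siNTC PA. It fell by both criteria in siErk3 (-0.41), with -0.34 in siNTC and -0.33 in siMk5, and the media did not overlap over the 18 libraries. Pdk1, at 40.7, 45.2 and 46.0 and 38.3, 38.3 and 37.0 CPM, had differences of -0.22 in siNTC, -0.29 in siErk3 and -0.19 in siMk5 and passed the test alone. Pdp1, the phosphatase that restores the enzyme's activity, differed by -0.10 in siNTC, -0.04 in siErk3 and -0.00 in siMk5 and passed in none. The remaining kinase of this family, Pdk4, which is outside the 38 genes and a known target of fatty acids, rose from 40.9, 40.3 and 38.6 to 116, 125 and 123 CPM in siNTC (log2 1.61, SE 0.0667), and by 1.54 in siErk3 and 1.43 in siMk5.

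The share of each isozyme within its family was computed from CPM per kb in each library. Hk2 made up 30.3, 30 and 30.3% of the summed Hk1 and Hk2 level in siNTC BSA and 56, 58.6 and 60.3% in siNTC PA. Pgam2 made up 52.8% ± 3.2 of the mutases in siNTC BSA and 27.2% ± 0.421 in siNTC PA (SD, n = 3). In BSA both mutases stood near parity, with Pgam2 at 48.9% ± 0.558 in siErk3 and 48.2% ± 1.41 in siMk5, and in PA the share was 30% ± 2.87 and 29.5% ± 2.31. Eno3 made up 74.5% ± 0.394 and 59.9% ± 1.35 of the enolases, and remained the larger part. Pfkm made up 85.9% ± 0.374 and 73.4% ± 0.895 of phosphofructokinase, and Pfkl 10.1% ± 0.518 and 19.9% ± 0.904, where the summed exon length of Pfkp, 13401 bases against 3340 for Pfkm, lowers the share of Pfkp.

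Slc16a1 made up 67.5% ± 0.565 of the 2 transporters in siNTC BSA and 85.4% ± 0.2 in siNTC PA. Pfkfb3 went from 31.9% ± 2.94 to 50.4% ± 3.29 of its pair, and Ldhb from 2.97% ± 0.279 to 1.72% ± 0.162 of the lactate dehydrogenase subunits. Among the 4 pyruvate dehydrogenase kinases Pdk2 went from 23.8% ± 1.4 to 9.52% ± 0.622, while Pdk4 went from 29.7% ± 1.32 to 63.7% ± 0.851. Of 10 isozyme ratios, the 3 PA and 3 BSA libraries did not overlap for 9 in siNTC, 10 in siErk3 and 10 in siMk5. The ratios are not independent, since Pfkm enters more than 1 of them. How often other gene pairs separate between the media was not measured. The mean log2 ratio of Hk2 to Hk1 differed by 1.69 between PA and BSA in siNTC, that of Pgam2 to Pgam1 by -1.58, and that of Eno3 to Eno1 by -0.97. The exact two-sided permutation test of 3 against 3 libraries cannot give a p under 0.1, which each of these ratios reached.

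**Figure D3:**
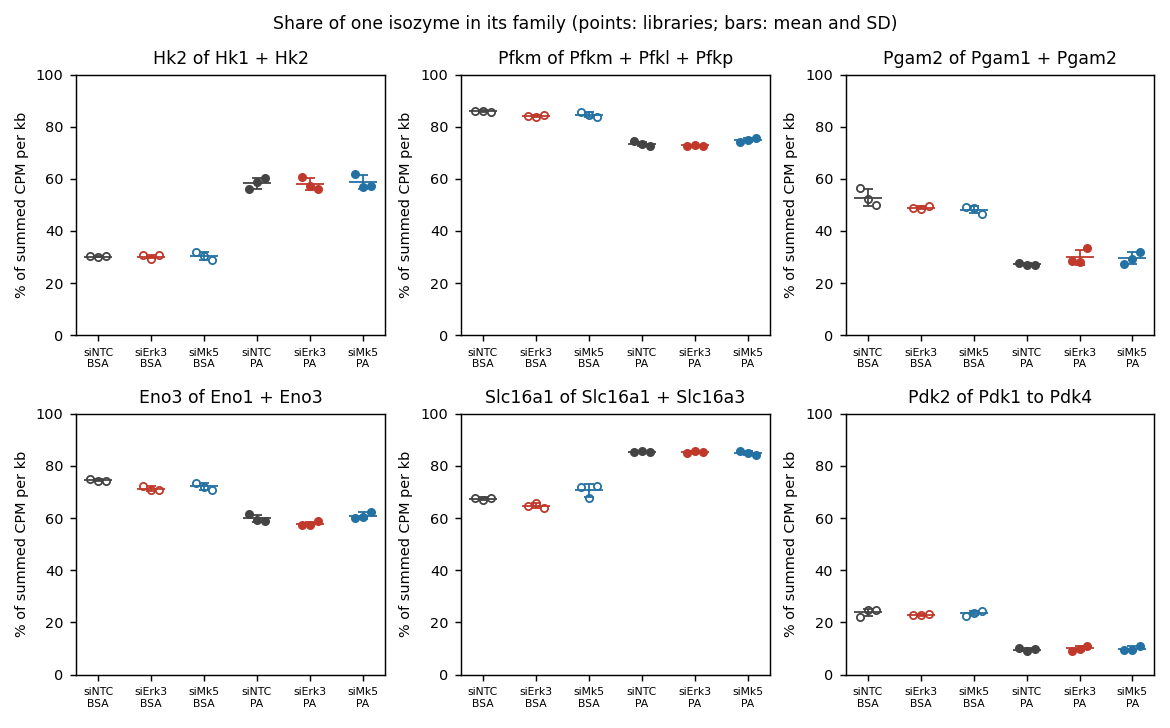
Share of 1 isozyme in the summed CPM per kb of its family (percent, vertical axis) for 6 families in the 6 groups, with a point for each of the 3 libraries of a group, open for BSA and filled for PA, and bars for the mean and SD. Hk2 takes 30.2% ± 0.174 of its pair in siNTC BSA and 58.3% ± 2.2 in siNTC PA, and Pgam2 goes from 52.8% ± 3.2 to 27.2% ± 0.421.

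Markers of muscle differentiation and of cycling cells moved in the same comparisons. Of the 25 myotube genes 12, 8 and 7 fell with PA in siNTC, siErk3 and siMk5 and 0 rose, where 15.1, 16.3 and 14.6% of all genes fell. Of the 9 genes of undifferentiated or cycling myoblasts 7 fell in each, their sum being 1011 to 1100 CPM in the 9 BSA libraries and 426 to 562 CPM in the 9 PA libraries. Myog, the factor that starts terminal differentiation, differed by log2 -0.59 in siNTC, Ckm, the muscle creatine kinase, by -0.38, Pax7, a gene of satellite cells, by -0.85, and Acta1, skeletal actin, by -0.08, which did not pass the test (adjusted p = 0.256, edgeR). The part of these markers in the lower levels of Pfkm, Pgam2, Eno3 and Pygm was not tested. Against siNTC, 4 of the 25 myotube genes rose with siErk3 in BSA and 3 in PA, and 0 fell. Of all genes, 0.785 and 0.556% were called there. With siMk5, 1 rose and 1 fell in BSA, and 0 rose and 1 fell in PA (all genes called 0.0643 and 0.547%).

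Silencing of Erk3 in BSA medium, which asked what the kinase does to these genes without a fatty acid load, left all but 1 of them uncalled. The exception was Ppp1r3c, which measured 3.23, 3.63 and 2.98 CPM in siNTC BSA and 2.03, 1.94 and 2.11 CPM in siErk3 BSA, with every siErk3 library below every siNTC library. It fell by 0.70 on the log2 scale (SE 0.158, adjusted p = 0.0167, edgeR). This 1 gene is 2.63% of the list, where 0.785% of all genes were called and 0.198% of all genes were called as lower. The gene is at chr19:36709131-36714053 (GRCm39, ENSMUSG00000067279). Its level is low, and the call was lost without siNTC BSA replicate 2 (log2 -0.60, adjusted p = 0.175) and without any of the 3 siErk3 BSA replicates (-0.72 to -0.66, adjusted p = 0.0581 to 0.0915). In siMk5 BSA Ppp1r3c measured 3.401, 2.62 and 3.15 CPM, and its difference from siErk3 BSA of -0.59 did not pass (adjusted p = 0.0765, edgeR).

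Smaller differences with siErk3 in BSA stayed below the thresholds. 26 of the 38 genes had a log2 difference above 0, and the libraries did not overlap for 13 (34.2%, all genes 17.4%), 11 of them with siErk3 above siNTC. 10 genes had an unadjusted p under 0.05. Pgam1 measured 100.03, 122 and 120.0 CPM in siNTC BSA and 124, 132 and 135 CPM in siErk3 BSA, a log2 difference of 0.19 (SE 0.0554, adjusted p = 0.115, edgeR). Eno1 differed by 0.16 (adjusted p = 0.134, edgeR) and Gys1 by 0.18 (adjusted p = 0.178, edgeR). None of these passed. The lowest of the siNTC BSA libraries for Pgam1, Eno1, Pfkl and Gpi1 was replicate 1, which was also the least deeply sequenced library at 13041979 counts, and its part in these differences was not tested.

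Of the 10 isozyme ratios, 7 did not overlap between siErk3 BSA and siNTC BSA, 1 above and 6 below. The mean log2 ratio of Pfkm to Pfkl differed by -0.23, that of Eno3 to Eno1 by -0.23, and that of Pgam2 to Pgam1 by -0.23, each with the smallest exact permutation p of 0.1 that 3 against 3 libraries allow. That of Hk2 to Hk1 overlapped. The Eno3 share was 75, 74.2 and 74.4% in siNTC BSA and 72.4, 70.7 and 70.9% in siErk3 BSA. The Pgam2 share was 56.3, 52.2 and 49.9% in siNTC BSA. In siErk3 BSA that share was 48.9, 48.4 and 49.5%, and in siMk5 BSA 49.3, 48.7 and 46.6%. The mutase ratios thus separated narrowly. Replicate 1 of siNTC BSA stood farthest from the silenced libraries, and its part in these differences was not tested. With siErk3 in PA 2 ratios lay above siNTC without overlap and 1 below, and that of Pgam2 to Pgam1 was above, by 0.19. With siMk5 in BSA 0 lay above and 2 below, those of Pgam2 to Pgam1 (-0.27) and Eno3 to Eno1 (-0.17). With siMk5 in PA all 10 overlapped. How often other gene pairs separate in this way was not measured.

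In the other 3 comparisons with siNTC no gene of the list was called. With siMk5 in BSA 0 of 38 were called (edgeR, and 0 with DESeq2), 4 had an unadjusted p under 0.05, and 0.0643% of all genes were called. With siErk3 in PA 0 of 38 were called (0 with DESeq2), 5 had an unadjusted p under 0.05 and 0.556% of all genes were called. With siMk5 in PA 0 of 38 were called (0 with DESeq2), 0 had an unadjusted p under 0.05 and 0.547% of all genes were called. The nearest to a call was Pygm, which measured 81.4, 83.3 and 90.6 CPM in siNTC PA and 105.2, 96.7 and 93.7 CPM in siErk3 PA without overlap. Its difference of 0.21 (SE 0.0525, adjusted p = 0.0429, edgeR) passed the test alone, as 0.854% of all genes did, and stayed under the fold criterion. Pgam2 measured 27.9, 26.9 and 27.1 CPM in siNTC PA and 31.8, 29.5 and 38.1 CPM in siErk3 PA, and its difference of 0.27 did not pass (adjusted p = 0.0941, edgeR). The libraries did not overlap for 12 of the 38 genes with siErk3 in PA (31.6%, all genes 12.1%), 11 of them with siErk3 above, and for 5 with siMk5 in each medium (13.2%, all genes 12.3% in BSA and 12% in PA).

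For most of the list the precision was enough to bound the difference between these silenced and siNTC libraries, whose spread may be technical. The 95% interval of the log2 difference lay within a 1.3-fold change in either direction for 33 of the 38 genes with siErk3 in BSA, 34 with siMk5 in BSA, 34 with siErk3 in PA and 35 with siMk5 in PA. Aldoc, Phkg1 and Ppp1r3c, all of low level, were outside it in each comparison, Ldhb in both comparisons in BSA, Pfkfb3 with siErk3 in BSA and Pgam2 with siErk3 in PA. For Hk2 the interval ran from -0.04 to 0.28 with siErk3 in BSA and from -0.11 to 0.23 with siMk5 in BSA, and for Slc16a1 from -0.10 to 0.12 and from 0.04 to 0.26. In siMk5 BSA the transporter measured 51.1, 48.6 and 53.6 CPM, above every siNTC BSA library, with a difference of 0.15 that did not pass (adjusted p = 0.520, edgeR).

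**Figure D4:**
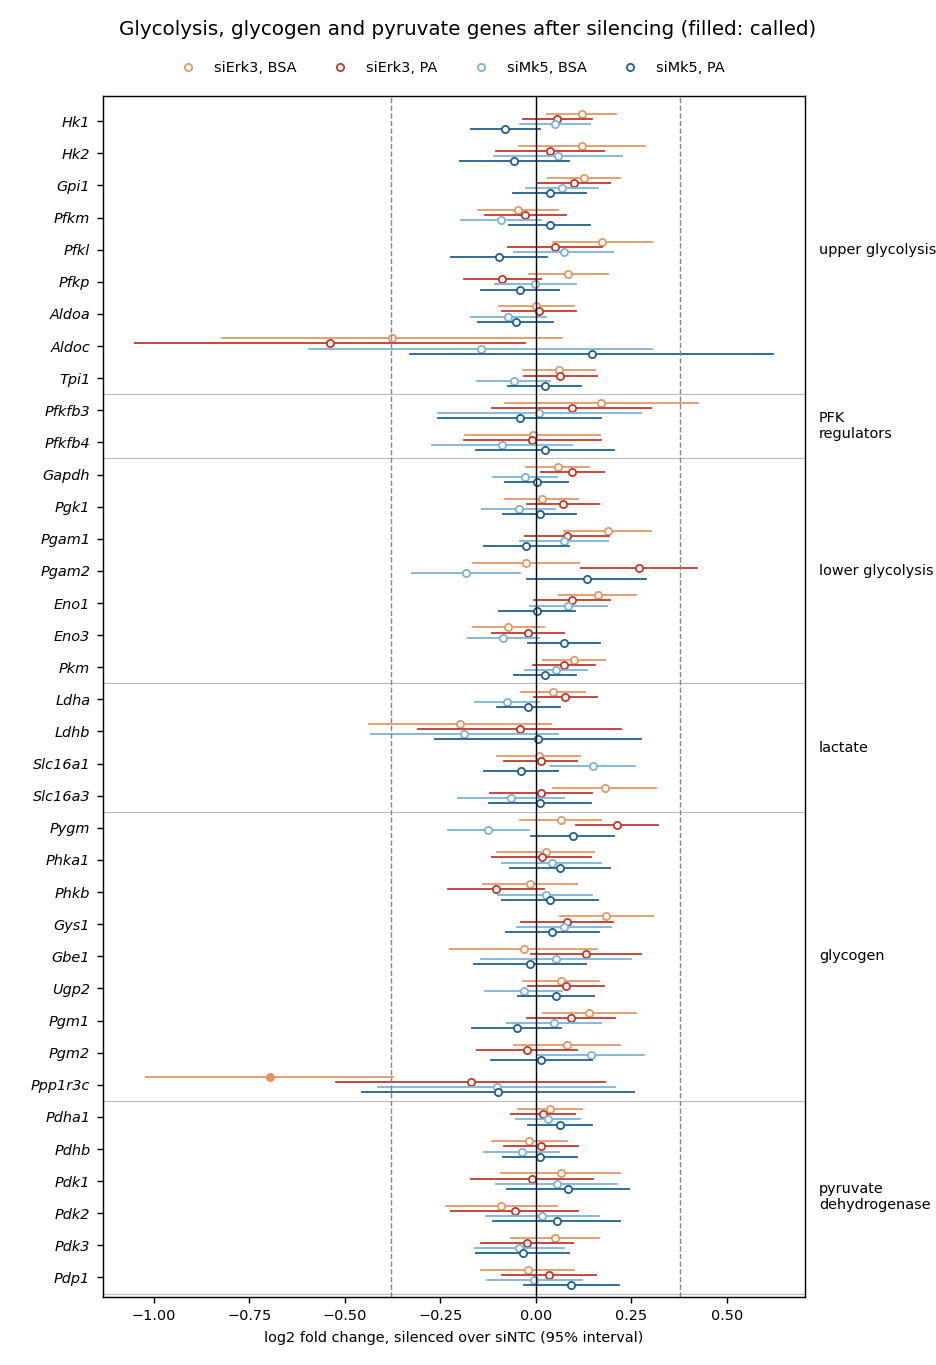
Log2 ratio of silenced over siNTC (horizontal axis) for 37 of the 38 genes, without Phkg1, with siErk3 and siMk5 in BSA and in PA. Points are edgeR estimates with 95% intervals, filled where a gene passed both criteria, and dashed lines mark 1.3-fold. The only filled point is Ppp1r3c with siErk3 in BSA, at -0.70.

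Compared directly, siErk3 and siMk5 differed in no called gene of the list. In BSA 0 of 38 were called (edgeR, and 0 with DESeq2, all genes 0.588%) and 9 had an unadjusted p under 0.05. Of these Slc16a3 differed by 0.24 (adjusted p = 0.0771, edgeR) and Pygm by 0.19 (adjusted p = 0.0840, edgeR), both higher with siErk3. In PA 0 of 38 were called (0 with DESeq2, all genes 1.03%) and 10 had an unadjusted p under 0.05, of which Hk1 had the smallest, with a difference of 0.14 (adjusted p = 0.170, edgeR).

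Whether silencing altered the response to PA was tested as an interaction. For siErk3 0 of the 38 genes were called (0 with DESeq2, all genes 0.0367%). 3 of them had an unadjusted p under 0.05, as did 1329 of all 21772 genes. For siMk5 0 of the 38 were called (0 with DESeq2, all genes 0.211%) and 5 had an unadjusted p under 0.05. The genes called in 1 or 2 siRNA groups are therefore not shown to respond differently between them. The interval of the interaction lay within a 1.3-fold change for 31 genes with siErk3 and 32 with siMk5. Pgam2, which fell in all 3 groups, had an interaction of 0.29 with siErk3 (SE 0.101, adjusted p = 0.557, edgeR) and 0.32 with siMk5 (SE 0.103, adjusted p = 0.373, edgeR). Ppp1r3c had one of 0.53 with siErk3 (SE 0.234, adjusted p = 0.753, edgeR), and Slc16a1 one of -0.19 with siMk5 (adjusted p = 0.522, edgeR).

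The steps around the list were read from a further 80 genes of glucose entry, other isozymes, lactate, glycogen, pyruvate, gluconeogenesis, the pentose phosphate and hexosamine branches, the shuttles of reducing equivalents and their regulators, of which 66 were tested. With PA 25 rose and 7 fell in siNTC, 24 and 7 in siErk3, and 24 and 5 in siMk5, where of all genes 15.5, 15.8 and 15.1% rose and 15.1, 16.3 and 14.6% fell. Those that rose in all 3 siRNA groups were Slc2a1, Adpgk, Eno2, Tigar, Gaa, Phkg2, Stbd1, Pdk4, Pdp2, Fbp2, Pck2, G6pdx, Pgd, Taldo1, Tkt, Gfpt1, Got1, Gpd2, Mlx and Myc, and those that fell in all 3 were Slc2a3, Phka2, Pygb and Gpd1. Eno1b rose in siNTC and siErk3, Gfpt2 and Ppp1r3b in siNTC and siMk5, Dld and Mdh1 in siErk3 and siMk5, Arrdc4 and Rpia in siNTC alone and Hkdc1 in siErk3 alone. Pfkfb1 and Slc2a4 fell in siNTC and siErk3, Ppp1r3a in siNTC alone, Epas1 in siErk3 alone and Txnip in siMk5 alone, and calls in 1 or 2 groups are not shown to differ between them. The pentose phosphate and hexosamine branches leave glycolysis after the hexokinase and isomerase steps, and 7, 5 and 6 of their 9 genes rose while 0 fell. Pgd, an NADPH-making enzyme of the pentose phosphate branch, measured 95.7, 104 and 103 CPM in siNTC BSA and 355, 389.7 and 404 CPM in siNTC PA (log2 1.92).

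Slc2a1, the widely expressed glucose transporter that supplies hexokinase, measured 43.2, 47.0 and 48.6 CPM in siNTC BSA and 137, 157 and 169 CPM in siNTC PA, and rose by log2 1.73 in siNTC, 1.68 in siErk3 and 1.58 in siMk5. Slc2a4, the insulin-responsive transporter of muscle, which fell in siNTC and siErk3, had only 2 to 17 counts per library, so its size of change is poorly measured. Slc2a3, the neuronal transporter, which fell in all 3 groups, had 13 to 60 counts per library. Among the glycogen genes outside the list, Stbd1, which tethers glycogen to membranes, rose from 28.8, 29.1 and 30.4 to 104, 109 and 113 CPM in siNTC (log2 1.88). Got1, the cytosolic transaminase of the malate-aspartate shuttle, rose by 1.83 in siNTC, and Myc, a transcription factor known to activate glycolytic genes, by 2.06. Of 11 hypoxia-inducible genes outside glycolysis, 4, 5 and 4 rose and 1, 0 and 0 fell, where of all genes 15.5, 15.8 and 15.1% rose and 15.1, 16.3 and 14.6% fell. Bnip3, Ero1a, P4ha2 and Vegfa rose in all 3 siRNA groups and Ndrg1 in siErk3, and Ankrd37 fell in siNTC, with Vegfa, an angiogenic factor, at 1.98 and Ero1a, an oxidase of protein folding, at 2.78 in siNTC. Both are induced by other stresses as well. In the 4 comparisons of silencing with siNTC and in the interactions 0 of the 66 genes were called (edgeR). An unadjusted p under 0.05 was found for 9 of them with siErk3 in BSA, 7 with siMk5 in BSA, 8 with siErk3 in PA and 1 with siMk5 in PA, and for 1 and 4 in the interactions with siErk3 and siMk5.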

How the data were processed

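RNA-seq was done on 18 C2C12 libraries in 6 groups of 3, made as stranded poly(A)-selected libraries and sequenced as read pairs. The authors deposited a table of raw counts of read pairs per gene. Per the file headers it was made with featureCounts 2.0.0 on the Ensembl 105 annotation, with a strand setting of 2 and a minimum mapping quality of 3. Trimming with Trim Galore and alignment with STAR preceded it per the labels, which name mm10 as the build, whereas the gene coordinates of the table are those of GRCm39. A table of the authors' log2 FPKM values made from the same reads was not used, and 0 columns of other samples were present. A mapping quality of 3 admits pairs that fit 2 places, so near-identical copies (Eno1 and Eno1b, and copies of Gapdh, Pgk1, Ldha and Pkm) are uncertain. Of the exonic bases of Pfkm 10.2% and of Pkm 15.3% overlap another annotated gene.

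The 21772 genes whose counts summed to 10 or more over the libraries entered the fit. The deposited counts of all 18 libraries were fitted by group in edgeR 4.0.16 (R 4.3.3) with TMM scaling and tested by the quasi-likelihood F test, with Benjamini-Hochberg adjustment over all genes kept. A gene was called at an adjusted p below 0.05 and a fold above 1.3, the criteria of the study's methods, which used DESeq2. Counts of genes at an unadjusted p under 0.05 are descriptions and not calls, and most are given without the share over all genes. Standard errors are the log2 difference over the square root of F, and intervals cover 95%. Isozyme ratios were compared by a two-sided exact permutation test (scipy 1.17.1). CPM is TMM-scaled, and was divided by summed exon length where genes are compared.

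All 38 listed genes are accounted for, with values by library for called genes and isozyme pairs. Genes outside the list are named where called, with values, mostly those in siNTC, for at most the 8 with the smallest adjusted p and with counts for Slc2a3 and Slc2a4, beside Mapk6, Mapkapk5, Ckm, Acta1, Myog and Pax7. The list, its steps and the wider lists were chosen with earlier results of these data known. Alternatives were DESeq2 1.42.0, its size factors, other filters on low counts, a replicate block, only the groups compared, no fold criterion, each library left out in turn and, chosen after seeing the data, the 18S gene left out. On simulated counts for siMk5 BSA against siNTC BSA over 21772 genes, the test recovered 99% of 200 genes changed by a log2 fold of 1 and called 6 unchanged genes. The 200 genes were drawn from those without a low expected count. Recovery of low genes or of differences near the fold criterion was not simulated. No libraries of a group agreed within sampling noise.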

Additional observations from a re-analysis of the deposited data

How the results depend on the processing

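Of the 47 calls of single genes, tried under 25 alternatives each, 1137 of 1175 values kept direction and call, 38 lost the call and 0 reversed. The lost calls were those of Eno1 in siNTC (PA against BSA, log2 0.37 without siNTC BSA replicate 1), Pfkp in siNTC (0.33 to 0.38 under 11 alternatives), Eno1 in siErk3 (0.33 to 0.38 under 13), Ldhb in siErk3 (-0.38 without siErk3 BSA replicate 2), Aldoc in siErk3 (-0.66 to -0.54 under 8, which include DESeq2, no filter and each of its own 6 libraries left out) and Ppp1r3c with siErk3 in BSA (-0.72 to -0.60 under 4). Counting genes by the adjusted p alone gave 32, 30 and 29 genes for PA against BSA in siNTC, siErk3 and siMk5 and 1 gene for siErk3 against siNTC in PA. With the filterByExpr filter the median log2 difference of the list in siErk3, PA against BSA, was 0.0488 in place of 0.0123, and the cause was not tested.

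With 1 library left out at a time, the genes called for PA against BSA ranged from 16 to 19 in siNTC, 14 to 17 in siErk3 and 12 to 15 in siMk5, and for siErk3 in BSA from 0 to 1. In the other silencing comparisons and the interactions they stayed at 0. The median log2 of the list ranged from 0.0698 to 0.133, from -0.0206 to 0.0296 and from 0.1216 to 0.1682 for PA against BSA in siNTC, siErk3 and siMk5, and from -0.0347 to 0.0199 for the interaction with siErk3. With the replicate number as a replicate block, 17, 17 and 12 genes were called for PA against BSA and 1 for siErk3 in BSA, and 0 in every other comparison. The numbers were not taken as pairing, since the mean correlation of same-numbered libraries over 9332 genes ranged from -0.441 to 0.367 and 6 of 18 libraries correlated best with their own number. Depth limits Aldoc, Ldhb, Pfkfb3, Phkg1 and Ppp1r3c, whose intervals were the widest of the list in every comparison.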
